A study of Mus musculus with 1012 samples.

Results

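Levels of 7 mouse genes of the sterol pathway, Hmgcs1, Idi1, Fdps, Sqle, Lss, Insig1 and Srebf2, were followed through 1012 single-cell RNA libraries, in which they are 7 of 30452 features counted. They were taken by name from a list proposed as cholesterol synthesis and uptake. The 7 cover synthesis and its control, and none of them encodes an uptake receptor. The libraries are of Live-seq biopsies, of whole cells (scRNA-seq) and of whole cells lysed in an experiment on recovery from sampling. Live-seq draws a small volume of cytoplasm out of a living cell with a hollow atomic force microscopy probe (FluidFM) and sequences its RNA by an enhanced Smart-seq2 protocol, so that the cell can be cultured or sampled again. Whole cells were trypsinised, sorted and lysed.

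The states were as follows. RAW cells are the mouse macrophage-like line RAW264.7, used as wild-type cells in Live-seq batch 5Reseq and elsewhere as the subline RAW-G9, a single clone that carries mCherry driven by the Tnf promoter and an EGFP-Rela fusion protein. RAW_Mock cells were not stimulated. RAW_LPS cells were exposed to lipopolysaccharide (LPS), which Gram-negative bacteria shed and macrophages sense, and the sources differ on its dose. Biopsies were drawn 4 to 5 h after LPS was added, and the methods of the study give no such time for whole cells. IBA cells are an immortalised brown preadipocyte line made from the interscapular fat of young male C57BL6/J mice. ASPC_Pre cells are primary adipose stem and progenitor cells from the subcutaneous fat of female C57BL/6J mice of 7 to 10 weeks, and ASPC_Post cells are ASPCs after 2 days with dexamethasone, IBMX, insulin and rosiglitazone, an adipogenic cocktail. How many mice the ASPCs came from in each batch is not given in the sources used here. In the recovery experiment, IBA cells were lysed 1 h or 4 h after a biopsy had been drawn, beside cells without a biopsy (0 h). All cells were kept in medium with serum, which supplies cholesterol.

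Cells make cholesterol from acetyl-CoA through mevalonate, isoprenoid diphosphates, squalene and lanosterol. HMG-CoA synthase (Hmgcs1) makes HMG-CoA, Idi1 interconverts the isoprenoid units, Fdps joins them to farnesyl diphosphate, Sqle oxidises squalene and Lss closes the ring to lanosterol. Srebf2 encodes SREBP-2, the membrane-bound transcription factor that turns these genes on when sterols are scarce, and Insig1, itself a target of SREBP-2, holds it back in the endoplasmic reticulum when sterols are plentiful. Macrophages export or esterify the cholesterol they do not need, and fat cells build up lipid synthesis as they mature.

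All 7 are protein-coding genes placed on GRCm38 by GENCODE vM21. Hmgcs1 (ENSMUSG00000093930) spans chr13:119690379-119708260 on the plus strand and Idi1 (ENSMUSG00000058258) chr13:8885501-8892451 on the plus strand. Fdps (ENSMUSG00000059743) spans chr3:89093588-89101959 on the minus strand and Sqle (ENSMUSG00000022351) chr15:59315077-59331192 on the plus strand. Lss (ENSMUSG00000033105) lies at chr10:76531588-76557138, Insig1 (ENSMUSG00000045294) at chr5:28071363-28078662 and Srebf2 (ENSMUSG00000022463) at chr15:82147181-82205379, all on the plus strand. Reads were counted over exons without regard to strand, and a read over exons of more than 1 gene was not counted. The exon bases that a member shares with another annotated gene made up 26.7% of Fdps (with Gm43738), 12.1% of Hmgcs1 (Gm48342), 9.22% of Idi1 (Gm48574) and 3.53% of Lss (4930483K19Rik), and none of Sqle, Insig1 and Srebf2. These overlaps are those of GENCODE vM21. The authors counted reads over an Ensembl annotation, in which the overlaps were not checked. How far the level of Fdps in particular is affected is therefore uncertain.

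Promoters of 300 bases, from 250 before to 50 after the start, were found for 5 of the 7 members in RefSeq (GRCm38.p6), all but Sqle and Fdps. Printed 5′ to 3′ on the plus strand, they are shown for the genes whose levels differed between cell types, Hmgcs1 and Insig1, and for Srebf2, whose product acts on such promoters. Capitals mark TCACCCCA (reverse complement TGGGGTGA), a form of the sterol regulatory element core, and CCAAT (reverse complement ATTGG), the box bound by NF-Y; both were searched on both strands, do not overlap each other, and were chosen after the promoters had been seen.
Hmgcs1, chr13:119690101-119690400: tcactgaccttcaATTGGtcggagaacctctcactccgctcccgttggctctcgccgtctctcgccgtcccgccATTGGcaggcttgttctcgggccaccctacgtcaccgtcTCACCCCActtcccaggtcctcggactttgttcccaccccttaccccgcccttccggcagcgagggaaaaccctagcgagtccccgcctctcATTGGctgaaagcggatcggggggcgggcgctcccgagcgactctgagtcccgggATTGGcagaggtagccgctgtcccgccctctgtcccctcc
Insig1, chr5:28071162-28071461: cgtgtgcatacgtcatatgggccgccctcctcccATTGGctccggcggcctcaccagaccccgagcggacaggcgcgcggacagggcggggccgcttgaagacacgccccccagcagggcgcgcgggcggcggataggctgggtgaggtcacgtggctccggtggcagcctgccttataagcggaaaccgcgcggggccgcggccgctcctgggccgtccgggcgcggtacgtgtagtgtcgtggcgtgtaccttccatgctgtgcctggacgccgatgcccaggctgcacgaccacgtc
Srebf2, chr15:82147019-82147318: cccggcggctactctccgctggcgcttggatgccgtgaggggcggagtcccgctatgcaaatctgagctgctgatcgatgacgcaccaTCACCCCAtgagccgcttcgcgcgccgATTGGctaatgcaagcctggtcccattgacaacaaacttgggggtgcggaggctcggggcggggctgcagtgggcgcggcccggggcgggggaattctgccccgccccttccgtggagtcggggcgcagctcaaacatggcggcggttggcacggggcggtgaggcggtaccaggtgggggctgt
TCACCCCA stood in Hmgcs1, 137 bases before the start (chr13:119690214-119690221), in Srebf2, 162 bases before it (chr15:82147107-82147114), and in 1.56% of all 32851 RefSeq promoters. CCAAT stood in all 5 promoters, 4 times in Hmgcs1, 2 times in Idi1 and 1 time each in Insig1, Lss and Srebf2, and in 37.4% of all promoters. Of 50 other pathway genes, 39 had a promoter in the table (50 promoters in all), of which 1 held TCACCCCA (Apoe) and 25 held CCAAT. These are matches of letters and not measured binding sites.

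The median library held 506778.5 counts in Live-seq, 467677 in whole cells and 506266 in the recovery experiment, and the extremes were 38451 and 2671609. The median number of genes with a count was 3942 in a Live-seq library and 8436 in a whole cell. Cells of the same state and batch were added up where there were 3 or more. Levels are given as the counts of a gene per kilobase of its exons and per 1000000 counts kept in such a sum (CPM per kb). The labelled cell types were checked against 10 macrophage and 10 mesenchymal markers: the macrophage markers took 0.293 to 3.49% of the counts of RAW sums and at most 0.0607% in IBA and ASPC sums, and the mesenchymal markers at most 0.000563% in RAW sums and 0.261 to 2.02% in IBA and ASPC sums. The 12 genes of the LPS response took 0.0423 to 0.284% in whole RAW_Mock cells and 1.18 to 2.56% in whole RAW_LPS cells. The Live-seq RAW_Mock sum of batch 6 stood apart: it held 8 cells, and in it the 7 members together took 0.0134% of the counts, against 0.0449 to 0.152% in the other Live-seq sums and 0.0449 to 0.104% in whole cells. Fewer cells that express a gene and less RNA of it per cell cannot be told apart in such sums.

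Hmgcs1, Sqle and Insig1 were the members with the highest mean CPM per kb in scRNA-seq whole cells of each of the 5 states. This order depends on the division by exon length. By mean CPM alone, Srebf2 lay above Insig1 in RAW_Mock, RAW_LPS and IBA, and Lss did so in RAW_Mock and RAW_LPS. In ASPC_Pre and ASPC_Post the same 3 members were highest by CPM too. In RAW_Mock the levels of the 3 were 35.5 ± 14.8, 34.9 ± 11.5 and 27.3 ± 15.7 CPM per kb (SD, n = 3 batches), which did not differ beyond their spread. Srebf2 followed with 14.5 ± 7.27, Lss with 8.45 ± 2.14, Fdps with 6.21 ± 3.49 and Idi1 with 4.11 ± 1.61 CPM per kb, and each of these neighbours overlapped in its spread. In ASPC_Pre the level was 74.1 ± 2.96 CPM per kb for Hmgcs1, 66.8 ± 13.7 for Insig1 and 31.4 ± 6.39 for Sqle (n = 2 batches). Sqle, which stood level with Hmgcs1 in RAW_Mock, was thus below both others in each ASPC_Pre batch in CPM per kb. By CPM alone, Sqle lay above Insig1 in ASPC_Pre of batch 8_8. Over the 5 states the mean level of Sqle ran from 23.8 in ASPC_Post (1 batch) to 34.9 ± 11.5 CPM per kb in RAW_Mock, and that of Lss from 7.65 ± 2.82 in IBA to 10.8 ± 1.85 in ASPC_Pre, whereas that of Insig1 ran from 25.2 ± 10.3 in RAW_LPS to 66.8 ± 13.7 in ASPC_Pre.

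**Figure D1:**
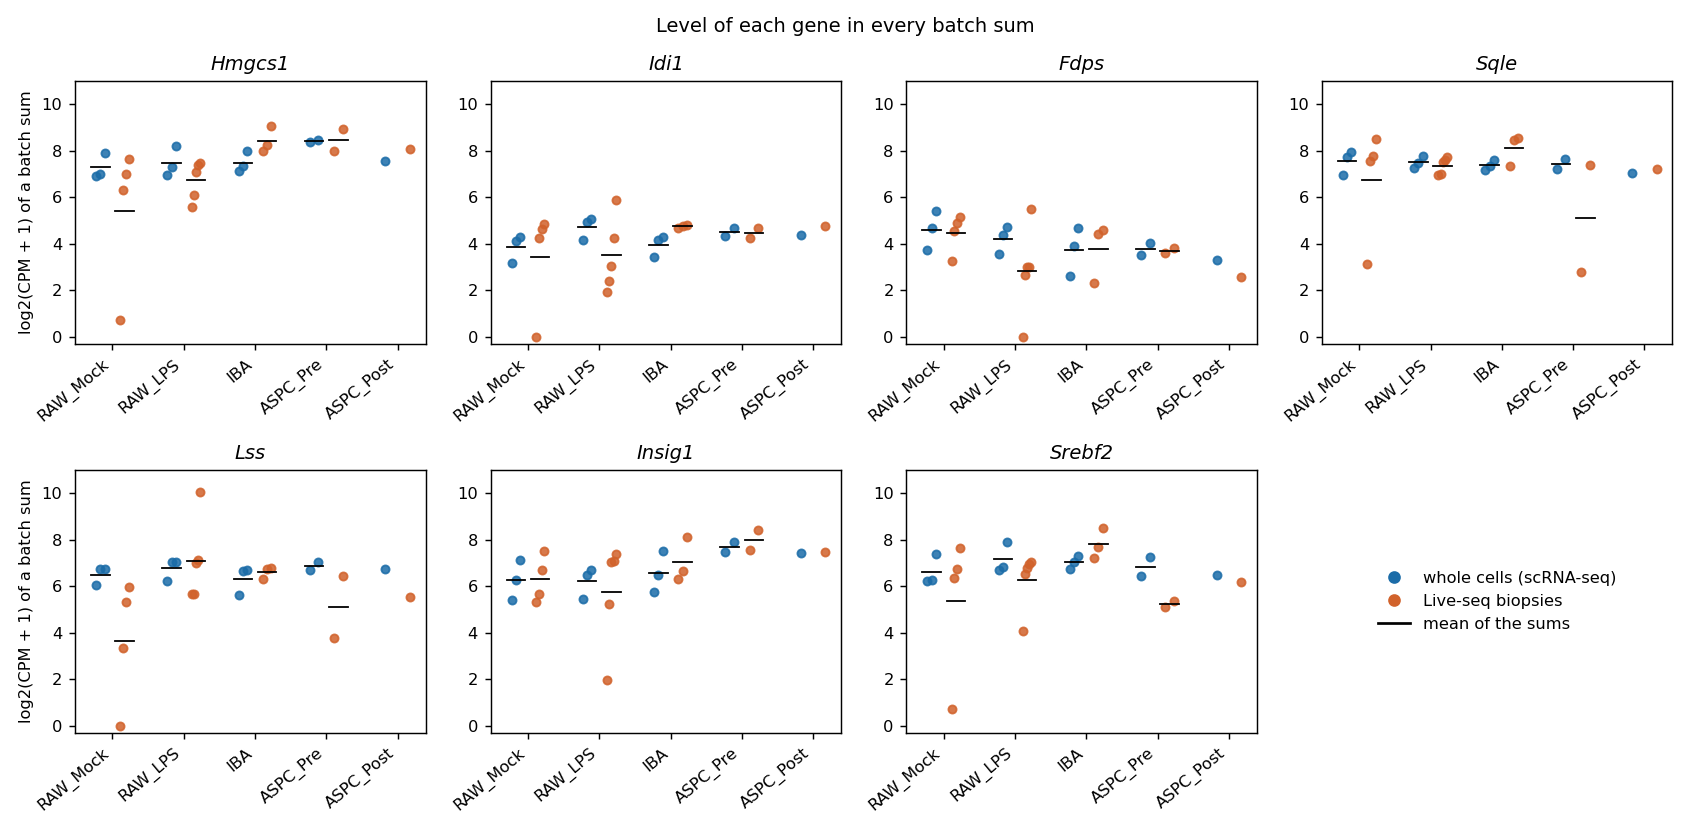
Each point is the level of a gene in 1 batch sum, as log2(CPM + 1), for whole cells (blue) and Live-seq biopsies (orange) of the 5 states, with a line at the mean of the log values where a state has several batches. The Live-seq sum of RAW_Mock batch 6 lies near 0 for Hmgcs1, Idi1, Lss and Srebf2, and both whole-cell ASPC_Pre points of Hmgcs1 and Insig1 lie above the RAW_Mock points.

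The cell types were compared to ask which sterol genes distinguish primary adipose progenitors, an immortalised preadipocyte line and macrophages grown without stimulation. In whole cells, Insig1 and Hmgcs1 were higher in ASPC_Pre than in RAW_Mock, Insig1 was lower in IBA than in ASPC_Pre, and no member passed the test between IBA and RAW_Mock. A gene was called at an adjusted p (edgeR's quasi-likelihood test, Benjamini-Hochberg over all genes tested) under 0.05 and an absolute log2 fold change over 1. All 7 members passed the filter on low counts in both techniques. ASPC_Pre against RAW_Mock and IBA against RAW_Mock share the RAW_Mock sums, and IBA against ASPC_Pre shares sums with both. How many of all genes have groups without overlap was not counted, so overlap is given below, in both techniques, as description only.

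Insig1, the sterol-sensitive anchor of SREBP-2, was at 57.1 and 76.5 CPM per kb in the ASPC_Pre sums of batches 8_8 and 9_1. In RAW_Mock it was at 13.1 CPM per kb in batch 8_8, 24.5 in batch 9_1 and 44.1 in batch scRNA, and in IBA at 17.1, 58.7 and 28.4 CPM per kb in the same batches. Both ASPC_Pre sums lay above all RAW_Mock sums, while the IBA sum of batch 9_1 lay just above the lower ASPC_Pre sum. The log2 fold change of ASPC_Pre against RAW_Mock was 2.03 (SE 0.40, adjusted p = 0.0036), and that of IBA against ASPC_Pre was -1.57 (SE 0.38, adjusted p = 0.0334), with IBA lower in 2 of 2 shared batches. Without batch 8_8 the first became 1.51 (adjusted p = 0.0879). The second was not called without batch 8_8 (-1.12, adjusted p = 0.217), batch 9_1 (-2.21, adjusted p = 0.0769) or batch scRNA (-1.31, adjusted p = 0.0986), nor was either called with no replicate block.

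Hmgcs1, which forms HMG-CoA, was at 76.2 and 72 CPM per kb in ASPC_Pre (batches 8_8 and 9_1). It was at 27.9, 26.1 and 52.6 CPM per kb in RAW_Mock and at 34.8, 55.2 and 30.5 CPM per kb in IBA (batches 8_8, 9_1 and scRNA). Both ASPC_Pre sums exceeded every sum of RAW_Mock and IBA. The log2 fold change was 1.69 against RAW_Mock (SE 0.39, adjusted p = 0.00799), which became 1.46 without batch 8_8 (adjusted p = 0.116) and 1.49 without batch 9_1 (adjusted p = 0.0538). IBA against ASPC_Pre gave a log2 fold change of -1.32 (SE 0.38, adjusted p = 0.0523), which was not called, and the groups did not overlap.

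The 2 members called in ASPC_Pre against RAW_Mock, 2 of 7, stand beside 40.0% of all 13405 genes tested that were called in that comparison, so their count is no more than the share of genes at large. The other members had log2 fold changes of 1.01 (Idi1, SE 0.49, adjusted p = 0.127), 0.82 (Srebf2), 0.73 (Lss), 0.40 (Sqle) and -0.50 (Fdps), and the median of the 7 was 0.82 against 0.25 over all genes tested. The groups of Idi1 did not overlap, with 5.41 and 7.13 CPM per kb in ASPC_Pre and 2.31, 5.4 and 4.62 CPM per kb in RAW_Mock, but the gap between them was small. For IBA against ASPC_Pre, 1 member of 7 was called beside 11.4% of all genes; the fitted log2 fold changes ran from -1.57 to -0.24 (Fdps), with a median of -0.79 against -0.10 over all genes tested. Of the 2 shared batches, IBA was lower in both for Hmgcs1, Idi1, Lss and Insig1, in 1 for Sqle and Fdps and in neither for Srebf2, and without batch scRNA the log2 fold changes of Srebf2 (0.05) and Fdps (0.18) were above 0. Between IBA and RAW_Mock, where 34.1% of all genes were called, the 7 log2 fold changes lay between -0.74 (Fdps, SE 0.66) and 0.56 (Srebf2, SE 0.35), and the lowest adjusted p of a member was 0.237. The batches went opposite ways: all 7 members were higher in IBA in batch 8_8, with CPM ratios of 1.14 (Fdps) to 2.32 (Idi1), and all 7 were lower in batch scRNA, with ratios of 0.123 (Fdps) to 0.665 (Sqle). The log2 fold change of Fdps was -1.36 without batch 8_8 and 0.07 without batch scRNA.

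**Figure D2:**
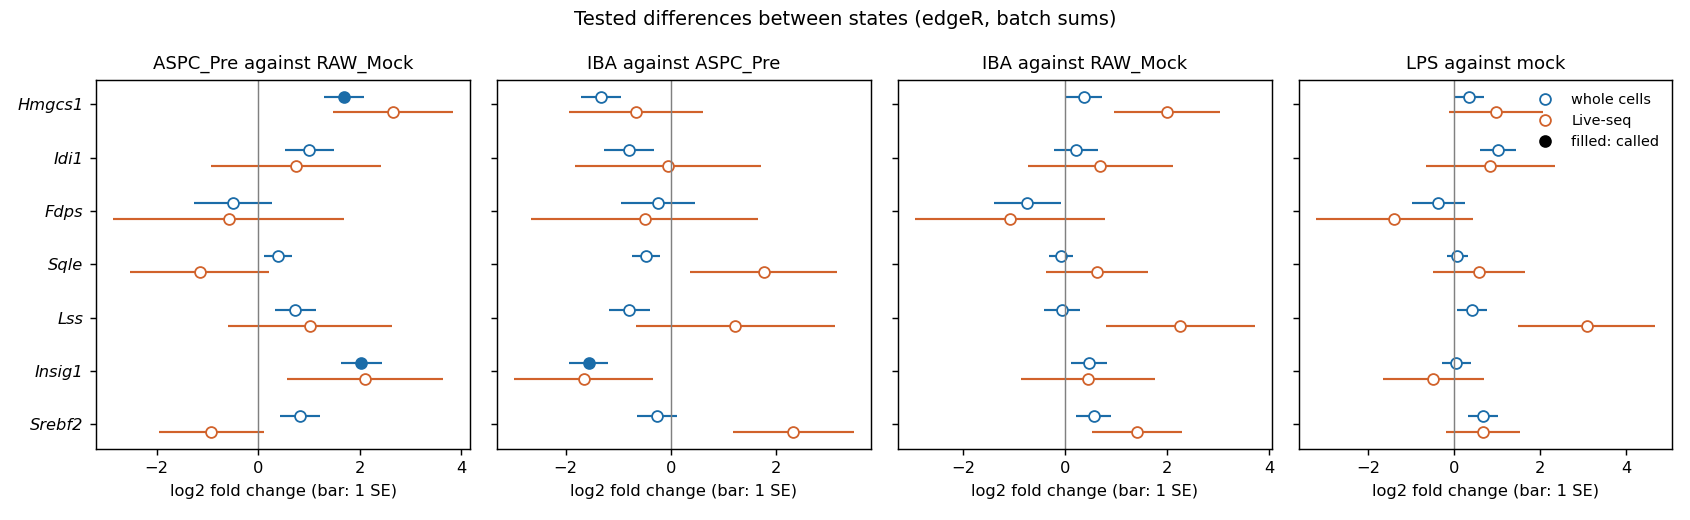
Log2 fold changes of the 7 genes in the 4 tested comparisons, with bars of 1 SE, for whole cells (blue) and Live-seq (orange); filled points were called. The filled points are Hmgcs1 and Insig1 in ASPC_Pre against RAW_Mock and Insig1 in IBA against ASPC_Pre, all in whole cells, and the Live-seq bars are longer than the whole-cell bars for every gene.

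The rest of the pathway was read from lists of genes that contain no member. Calls within every list stand beside the shares of all genes called in whole cells. These were 40.0% for ASPC_Pre against RAW_Mock, 34.1% for IBA against RAW_Mock and 11.4% for IBA against ASPC_Pre. Of 6 other genes of the mevalonate branch up to squalene, 2 were higher and 1 was lower in ASPC_Pre than in RAW_Mock, beside the 40.0% of all genes called there in either direction. The higher genes were mevalonate kinase Mvk (log2 fold change 1.99) and squalene synthase Fdft1 (1.45).

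Of 10 genes from lanosterol to cholesterol, 5 were higher and 1 was lower in ASPC_Pre than in RAW_Mock, again beside 40.0% of all genes. The higher genes were the 3-ketosteroid reductase Hsd17b7 (2.84), the lathosterol oxidase Sc5d (2.51), the sterol C14 reductase Tm7sf2 (1.87), Msmo1 (1.10) and Nsdhl (1.05), the last pair enzymes of C4 demethylation. The lamin B receptor Lbr, which is a sterol C14 reductase as well as a nuclear envelope protein, was lower (-1.70). The median of the 10 was 0.94 and that of the 6 mevalonate genes 0.96, against 0.25 over all genes. In IBA against ASPC_Pre, Fdft1 (-1.32), Tm7sf2 (-2.32), Hsd17b7 (-2.18) and Sc5d (-1.42) were lower and none of the 6 and 10 genes was higher, with medians of -0.86 and -0.54. In IBA against RAW_Mock, none of the 6 mevalonate genes was higher and 1 was lower, and of the 10 genes Sc5d (1.08) was higher and none was lower.

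Among 5 genes of SREBP control, Insig2, the paralogue of Insig1, was higher in ASPC_Pre (1.52) and in IBA (1.24) than in RAW_Mock, the protease gene Mbtps2 was lower in ASPC_Pre (-1.23) and the protease gene Mbtps1 was higher in IBA (1.04). Of 9 genes of uptake and intracellular transport, 3 were higher and 1 was lower in ASPC_Pre than in RAW_Mock, close to the 40.0% of all genes called there. The receptor Lrp1 (1.60) and the lysosomal carrier Npc2 (1.30) were higher in ASPC_Pre than in RAW_Mock, and lysosomal acid lipase Lipa was lower (-3.42), as it was in IBA (-3.18). Lrp1 (-1.90) and Npc2 (-1.69) were lower in IBA than in ASPC_Pre.

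Of 8 genes of the LXR pathway, efflux and esterification, 3 were higher and 2 were lower in ASPC_Pre than in RAW_Mock, beside 40.0% of all genes. Abca1, the cholesterol exporter, was higher in ASPC_Pre, at 2.14 and 5.55 CPM per kb against 0.156, 0.00378 and 0.231 in RAW_Mock. The macrophage exporter Abcg1 went the other way, with 0.133 and 1.57 CPM per kb against 19.3, 19.3 and 32.6 (log2 fold change -4.87). Nr1h2 (1.14) and cholesterol 25-hydroxylase Ch25h, at 9.82 and 33 CPM per kb against 0.333, 0 and 0.126, were also higher, and the cholesteryl ester hydrolase Nceh1 was lower (-1.58). IBA against RAW_Mock gave Abcg1 (-4.28), Nr1h3 (-2.99) and the esterifying enzyme Soat1 (-1.16) as lower, and IBA against ASPC_Pre gave Ch25h (-4.99) and Nr1h2 (-1.53) as lower. Of 5 genes of non-sterol products, Ggps1 was higher (1.71) and Dhdds (-1.03) and Pdss1 (-2.32) were lower in ASPC_Pre than in RAW_Mock. Dhdds (-1.31) and Coq2 (-2.04) were lower in IBA than in RAW_Mock, and Pdss1 was higher (1.98) and Coq2 lower (-2.05) in IBA than in ASPC_Pre. Of 7 genes of fatty acid synthesis, the desaturase Scd1 (6.44), Acss2 (3.25) and the citrate lyase Acly (1.23) were higher in ASPC_Pre than in RAW_Mock, Scd1 was higher in IBA (4.26), and none was called between IBA and ASPC_Pre.

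LPS was given to ask how macrophages change on activation. In whole cells, 1 of the 12 genes of the LPS response was called, although all 12 had log2 fold changes above 0, with a median of 4.36. A gene that was not called is therefore not shown to be unchanged. No member was called in whole cells, where 1.25% of the 13405 genes were, 14.7% had an unadjusted p under 0.05 and DESeq2 called 5.30%. Idi1 was nearest, with 4.77, 9.4 and 8.45 CPM per kb in RAW_LPS and 2.31, 5.4 and 4.62 CPM per kb in RAW_Mock of batches 8_8, 9_1 and scRNA. It was higher after LPS in each of the 3 batches, although the lowest RAW_LPS sum lay within the RAW_Mock range, and the log2 fold change was 1.02 (SE 0.42, adjusted p = 0.309). Srebf2 was at 15.7, 14.2 and 33.4 CPM per kb after LPS and at 10.1, 10.6 and 22.9 in mock cells, higher in 3 of 3 batches with overlapping groups (0.67, SE 0.34, adjusted p = 0.424). Lss, at 6.89, 12 and 12.1 against 5.97, 9.64 and 9.74 CPM per kb, was likewise higher in 3 of 3 batches (0.42, SE 0.34, adjusted p = 0.659).

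For the other 4 genes the batches went both ways. Hmgcs1 was at 27.1, 33.8 and 64.5 CPM per kb after LPS against 27.9, 26.1 and 52.6 (0.35, SE 0.34), and Sqle at 27.2, 31.6 and 39.9 against 22.2, 37.8 and 44.6 (0.08, SE 0.24). Insig1, at 13.6, 28.5 and 33.3 against 13.1, 24.5 and 44.1 CPM per kb, had a log2 fold change of 0.06 (SE 0.34). Fdps was at 2.53, 6.03 and 4.74 against 2.91, 5.86 and 9.87 CPM per kb (-0.36, SE 0.62). The median of the 7 was 0.35 against -0.01 over all genes tested. Of the 50 other pathway genes only Nceh1 was called, at 5.02, 8.97 and 2.76 CPM per kb after LPS against 15, 24.4 and 15.5 (-1.70, SE 0.28, adjusted p = 0.03).

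In Live-seq the spread of the sums left after state and batch were fitted was far wider. The biological coefficient of variation was 1.2 against 0.428 in whole cells, and no member was called in any Live-seq comparison. The share of all 11669 genes that were called was 0.0% for LPS, 2.42% for IBA against RAW_Mock, 2.24% for ASPC_Pre against RAW_Mock and 0.0171% for IBA against ASPC_Pre. For LPS, 4.7% of genes had an unadjusted p under 0.05 by edgeR and DESeq2 called 3.92%, none of them a member. By edgeR, none of the 12 genes of the LPS response was called either, although their median log2 fold change was 5.41. Of the 50 other pathway genes only Scd1, in IBA against RAW_Mock, was called in Live-seq (log2 fold change 7.34).

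Hmgcs1 in biopsies of RAW_Mock was at 0.139 CPM per kb in batch 6 (1 read), 27.9 in batch 7, 17.1 in batch 8_8 and 43 in batch 9_4. It was at 116.9, 56 and 65.6 CPM per kb in IBA (batches 7, 8_8 and 9_4) and at 106.997 and 55.1 CPM per kb in ASPC_Pre (batches 8_8 and 9_4). Every IBA and ASPC_Pre sum exceeded every RAW_Mock sum. The log2 fold changes against RAW_Mock were 2.00 for IBA (SE 1.03, adjusted p = 0.445) and 2.65 for ASPC_Pre (SE 1.19, adjusted p = 0.321), and without batch 6 they were 1.46 and 2.12. Insig1 was at 110.1 and 60.7 CPM per kb in ASPC_Pre and at 33.3, 58.4, 12.5 and 16.1 in RAW_Mock, again without overlap (2.11, SE 1.54, adjusted p = 0.611). Without batch 8_8 the log2 fold change of Insig1 was 0.00 to 2 decimals. The 3 IBA sums of Insig1 were 32.2, 25.3 and 89 CPM per kb.

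Srebf2 had its highest mean Live-seq level in IBA, with 50, 28.7 and 20.7 CPM per kb, against 5.62 and 4.62 in ASPC_Pre, groups that did not overlap (2.33, SE 1.16, adjusted p = 1). In whole cells the same pair of states had 21.7, 18.3 and 14.5 CPM per kb against 20.9 and 11.8 and overlapped. There the fitted log2 fold change of -0.26 (SE 0.38, adjusted p = 0.695) had the opposite sign to the CPM ratios within the shared batches, 1.04 in batch 8_8 and 1.55 in batch 9_1. The difference between the techniques in this contrast was not tested. In ASPC_Pre biopsies of batch 8_8 (18 cells), Sqle was at 1.08 and Lss at 1.16 CPM per kb, and in batch 9_4 at 30.1 and 7.99. Both enzymes were thus lower in the batch in which Hmgcs1 and Insig1 were higher.

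After LPS, biopsies had Lss at 4.59 CPM per kb in batch 5Reseq, 96.4 in batch 6, 11.9 in batch 7, 12.6 in batch 8_8 and 4.63 in batch 9_4, and mock biopsies at 0, 0.832, 3.62 and 5.6 CPM per kb in batches 6, 7, 8_8 and 9_4. The high sum of batch 6 came from 4 cells, and 1 cell gave 40.3% of all Lss counts of RAW_LPS. The log2 fold change was 3.09 (SE 1.60, adjusted p = 1) and 2.00 without batch 6. Of the other 6 members, Hmgcs1 was at 0.97, Idi1 at 0.85, Srebf2 at 0.67, Sqle at 0.57, Insig1 at -0.48 and Fdps at -1.39 on the log2 scale. Without batch 6 these became 0.04, 0.05, -0.03, -0.27, 0.51 and -0.33, so the Live-seq LPS values of the members rest largely on that batch. The LPS effect was compared between the techniques by an interaction term, in which no gene of 13412 was called (0.0%; 5.0% had an unadjusted p under 0.05, and DESeq2 called 2.96%, with no member). For the members this difference, Live-seq minus whole cells, ran from -1.05 (Fdps, SE 1.77) to 2.6 (Lss, SE 1.72).

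In RAW_Mock each of the 7 genes had a count in a smaller share of biopsies than of whole cells. Hmgcs1 had a count in 30.8% of RAW_Mock biopsies (exact 95% interval 22.1 to 40.6) and in 93% of whole RAW_Mock cells (87.8 to 96.5). After every cell was thinned to 50000 counts, shallower cells left out, the shares were 28.4% and 87.2%, so the gap was nearly as wide at equal depth. In RAW_Mock biopsies the thinned share ran from 15.7% (Lss) to 42.2% (Sqle), and in whole RAW_Mock cells from 43.6% (Idi1) to 93.6% (Sqle). In ASPC_Pre the gap was narrower for Hmgcs1 (65.6% of 61 biopsies against 85% of 60 whole cells) and for Insig1 (67.2% against 88.3%). Srebf2 was counted in 79.5% of 44 IBA biopsies at the thinned depth, its highest share in Live-seq, and in 36.1% of ASPC_Pre biopsies.

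Adipogenic induction was sampled to follow progenitors towards fat cells, in 1 batch for each technique, so its ratios carry only the counting error of reads that are not independent molecules and no test was possible. In whole cells of batch 9_1, Hmgcs1 went from 72 CPM per kb in ASPC_Pre to 40.9 in ASPC_Post, a ratio of 0.568 (exact Poisson 95% interval 0.545 to 0.592). Insig1 went from 76.5 to 54.5 CPM per kb (0.713, 0.681 to 0.745) and Sqle from 26.9 to 23.8 (0.885, 0.84 to 0.933). The ratio was 0.797 (0.696 to 0.911) for Idi1 and 0.839 (0.682 to 1.03) for Fdps, both under 50 CPM, while Lss (1.02, 0.957 to 1.08) and Srebf2 (1.04, 0.973 to 1.11) had intervals that held 1. With cells thinned to 50000 counts, the ratios were 0.532 for Hmgcs1, 0.841 for Insig1, 0.886 for Sqle and 0.978 for Idi1. They were 1.2 for Fdps, 1.37 for Lss and 0.908 for Srebf2, and only that of Sqle lay within the interval given for it. No member passed 2-fold, which 12.1% of 4648 genes with at least 50 CPM did upward and 10.1% downward. The ASPC_Pre sum of the other batch held 76.2 CPM per kb of Hmgcs1 and 57.1 of Insig1, so that Insig1 in ASPC_Post was close to the lower of the ASPC_Pre batches and Hmgcs1 was below both. The median share of mitochondrial counts was 8.71% in ASPC_Post and 4.45% in ASPC_Pre, and its part was not tested.

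In Live-seq of batch 9_4 the order of the ratios was another. Hmgcs1 went from 55.1 to 58.8 CPM per kb (1.07, 1.02 to 1.11), Insig1 from 60.7 to 56.2 (0.927, 0.88 to 0.976) and Sqle from 30.1 to 26.5 (0.882, 0.834 to 0.933). Lss went from 7.99 to 4.19 CPM per kb (0.524, 0.478 to 0.574), Fdps from 2.64 to 1.17 (0.444, 0.336 to 0.582) and Idi1 from 5.13 to 7.51 (1.46, 1.26 to 1.71). Among the members with at least 50 CPM, Sqle and Insig1 had intervals below 1 in both techniques. The median log2 ratio of all genes with at least 50 CPM was also below 0, at -0.14 in whole cells and -0.23 in Live-seq. Beside it, Sqle was at -0.18 and Insig1 at -0.49 in whole cells, and at -0.18 and -0.11 in Live-seq, above the median. The share of all genes with an interval below 1 was not counted. Srebf2 went from 4.62 to 10 CPM per kb (2.17, 1.95 to 2.41), with 33.3% of the ASPC_Post counts in a single cell, and the ratio was 1.51 when the cells sampled more than once were left out. Srebf2 was past 2-fold upward and Fdps, with under 50 CPM, downward; of 4146 genes with at least 50 CPM, 9.91% passed 2-fold upward and 14.1% downward. With biopsies thinned to 50000 counts, the ratios were 1.2 for Hmgcs1, 0.861 for Insig1, 0.725 for Lss, 1.74 for Idi1 and 2.7 for Srebf2. Each of these lay outside its interval, while those of Fdps (0.41) and Sqle (0.864) lay within. The median share of mitochondrial counts was 8.2% in ASPC_Post biopsies and 2.22% in ASPC_Pre biopsies of both batches, and its part was not tested.

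**Figure D3:**
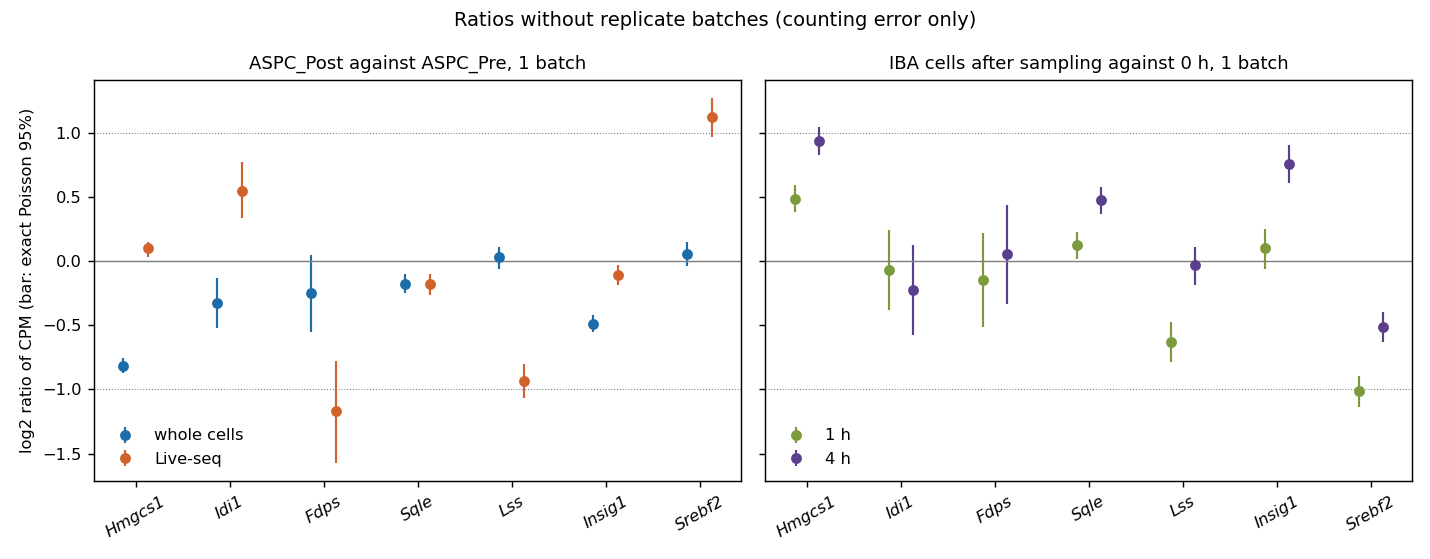
Log2 ratios of CPM with exact Poisson 95% intervals, for ASPC_Post against ASPC_Pre in whole cells (blue) and Live-seq (orange) and for IBA cells 1 h (green) and 4 h (purple) after a biopsy against 0 h; dotted lines mark 2-fold. Hmgcs1 lies at -0.82 in whole cells and 0.09 in Live-seq on induction, and at 0.49 and 0.93 at 1 h and 4 h after sampling.

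The other sterol genes were read beside these ratios, with the value in whole cells first and that in Live-seq second. Fdft1 had ratios of 0.424 and 0.569, the sterol isomerase Ebp of 0.508 and 0.464, and the lanosterol demethylase Cyp51 of 0.671 and 0.897, whereas Msmo1 had 1.24 and 1.37 and Mvd 0.916 and 2.46. Of the uptake genes, Lrp1 had 2.96 and 3.95, Npc2 had 1.75 and 2.1 and Lipa 1.32 and 1.88. Abca1 had 3.94 and 7.09, and of the fatty acid genes Scd1 had 3.83 and 4.18, Scd2 2.47 and 2.26 and Fasn 1.79 and 2.18. The median log2 ratio of the members with at least 50 CPM was -0.18 in whole cells and -0.11 in Live-seq, against -0.14 and -0.23 over all genes. That of the uptake list was 0.81 and 0.99, that of fatty acid synthesis 1.21 and 1.12, and that of LXR, efflux and esterification -0.23 and -0.07.

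Biopsies from the same cell before and after were few. The pairs were taken from shared pair numbers in the labels. The paper reports fewer ASPC pairs that passed its quality control, with their tracking barcodes recovered. Of 9 ASPCs sampled before and after induction, Hmgcs1 was lower after it in 5, higher in 3 and without a count in both biopsies in 1. Insig1 was lower in 6 of 9 and higher in 3, and Srebf2 was lower in 5 and higher in 4. Of 4 RAW cells sampled before and after LPS, Fdps was higher in 3 and lower in 1, and Hmgcs1 was higher in 1, lower in 1 and without a count in 2. The Fdps values rest on few reads, 3, 0, 0 and 0 before LPS and 2, 6, 30 and 4 after it in the same cells. The labels order the biopsies of 1 RAW pair the other way round. No test was made on these pairs.

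IBA cells lysed after a biopsy were compared with cells that had none, to ask how sampling changes a cell. Each time was 1 sample of batch 8_1 (70, 49 and 43 cells at 0, 1 and 4 h), with no replicate. Hmgcs1 stood at 11.6 CPM per kb at 0 h, 16.2 at 1 h and 22.1 at 4 h, ratios of 1.4 (1.3 to 1.51) and 1.91 (1.77 to 2.06) to 0 h. Insig1 stood at 9.19, 9.81 and 15.5 CPM per kb, with 1.07 (0.958 to 1.19) at 1 h and 1.69 (1.52 to 1.87) at 4 h. Sqle stood at 10.8, 11.8 and 15 CPM per kb, with 1.09 (1.01 to 1.17) and 1.39 (1.29 to 1.49). These 3 genes had their highest level at 4 h. A single cell gave 18.8% of the Hmgcs1 counts and a single cell 20.8% of the Insig1 counts at 4 h. Hmgcs1 had a count in 70%, 77.6% and 81.4% of cells and Insig1 in 57.1%, 79.6% and 88.4% at 0, 1 and 4 h. These shares are not at equal depth: the median library held 462757.5, 581052 and 492551 counts. With cells thinned to 50000 counts, the ratios at 1 h and 4 h were 1.22 and 1.74 for Hmgcs1, 1.16 and 1.96 for Insig1 and 1.18 and 1.64 for Sqle.

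Srebf2 went the other way, from 10.5 CPM per kb at 0 h to 5.2 at 1 h (0.495, 0.455 to 0.538) and 7.35 at 4 h (0.7, 0.644 to 0.759). Lss was at 3.42, 2.21 and 3.34 CPM per kb, with 0.646 (0.579 to 0.72) at 1 h and 0.976 (0.877 to 1.08) at 4 h. In the thinned cells the ratios at 1 h and 4 h were 0.456 and 0.889 for Srebf2 and 0.514 and 0.855 for Lss. Idi1 (2.27, 2.16 and 1.94 CPM per kb) and Fdps (1.41, 1.27 and 1.46 CPM per kb) had intervals that held 1 at both times. Srebf2 at 1 h was the only member past 2-fold; of 4510 genes with at least 50 CPM, 1.53% passed it downward at 1 h and 1.02% upward. Hmgcs1 at 4 h was just short of it, where 1.22% of 4526 genes passed upward and 1.68% downward. The 7 genes together took 0.0244 to 0.0334% of the counts here, against 0.0558 to 0.0899% in IBA cells of the other whole-cell batches.

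Of the other pathway genes with at least 50 CPM, Stard4, a sterol carrier, had ratios of 1.21 and 1.35 and Sc5d of 1.38 and 1.37 at 1 h and 4 h. Cyp51 (0.962 and 0.992) and Msmo1 (0.973 and 0.992) had intervals that held 1. Acat2, the cytosolic thiolase, was at 0.646 and Lbr at 0.687 at 4 h, and the fatty acid synthase Fasn was at 0.608 and 0.643. None of these passed 2-fold. Beside these ratios, the median share of mitochondrial counts was 4.52% at 0 h, 8.74% at 1 h and 9.01% at 4 h, and the 12 genes of the LPS response took 0.208%, 0.34% and 0.205% of the counts; their part in the ratios was not tested.

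Across cells of 1 state and batch most pairs of the 7 genes were positively correlated, and the pairs below 0 included some of Fdps, Idi1 and Srebf2. Spearman correlations of CPM were taken in the 14 groups with at least 30 cells, each over 21 pairs of members, as a description. The median over the pairs was 0.137 to 0.497, and the median over the pairs of all tested genes in the same cells was 0.005 to 0.145. In whole IBA cells of batch 9_1 it was 0.497 against 0.009 over all genes (n = 45 cells), and in whole RAW_LPS cells of that batch 0.42 against 0.012 (n = 46). Whole RAW_Mock cells had 0.194 in batch 9_1 and 0.137 in batch scRNA, and the latter was the lowest of the 14; the recovery experiment had 0.173 to 0.240. All 21 pairs were positive in 5 groups, and at least 16 were in each. The lowest value was -0.252, for Idi1 with Srebf2 in Live-seq ASPC_Post, where all pairs of Fdps were positive. The pairs of Fdps ran from -0.131 (with Idi1) to 0.079 (with Insig1) in whole RAW_Mock cells of batch 9_1. In IBA cells at 4 h they ran from -0.146 (with Idi1) to 0.1 (with Lss), and Idi1 with Srebf2 was lower, at -0.196. In whole IBA cells of batch 9_1 the pairs of Fdps ran from 0.045 (with Srebf2) to 0.699 (with Lss). The cells of a group share a batch and differ in depth, whose part was not tested, and the median over all gene pairs was highest in Live-seq (0.120 to 0.145).

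**Figure D4:**
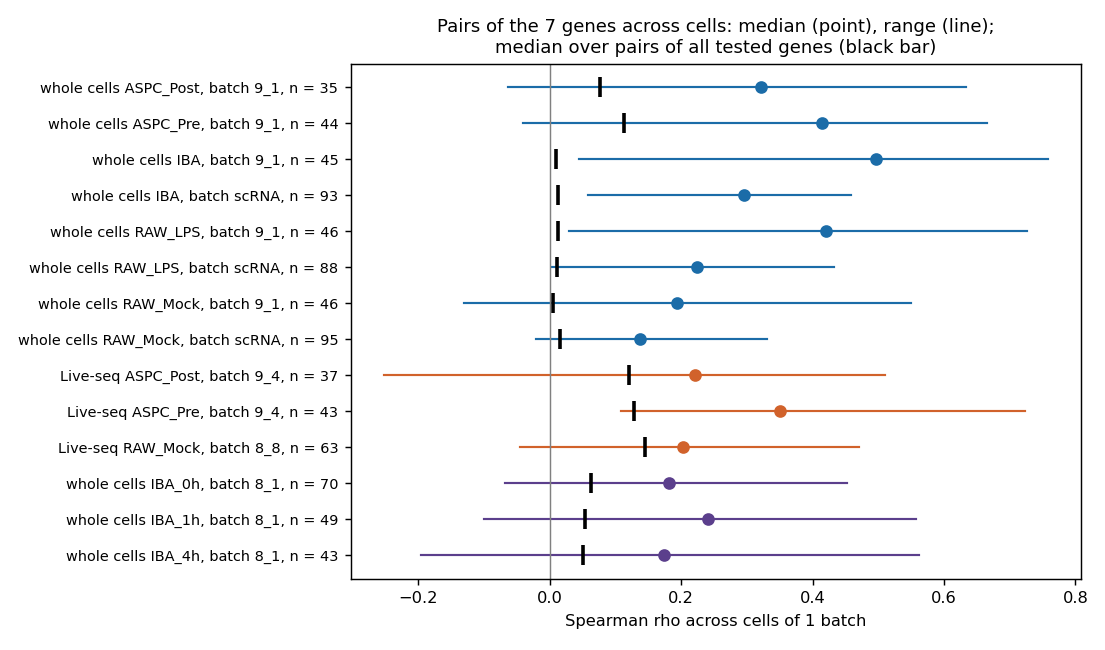
Median (point) and range (line) of Spearman's rho over the 21 pairs of the 7 genes, across the cells of each state and batch with at least 30 cells, beside the median over pairs of all tested genes (black bar). In all 14 groups the point lies to the right of the bar, by least in Live-seq RAW_Mock (0.202 against 0.145).

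Over the 12 whole-cell sums, the non-member genes whose log2(CPM + 1) was most like the mean standardised level of the 7, among 7811 genes with a mean of at least 20 CPM, included Fdft1 (Pearson r = 0.841), the major vault protein gene Mvp (0.828), Msmo1 (0.750) and Nsun3 (0.730). Acat2 (0.710) and Cyp51 (0.709) ranked 10 and 11 with the members counted in. The 12 sums share batches and cell types, and members were part of the mean, to which Lss was the most like (0.857) and Insig1 the least like among the 5 members with at least 20 CPM (0.642).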

How the data were processed

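RNA of 1012 single-cell libraries was sequenced, and the deposited table holds whole-number read counts per gene. The authors demultiplexed with bcl2fastq 2.19.1, used STAR 2.6.1c to place read 1 on mm10, and took reads with a single location into per-gene counts over Ensembl exons with HTSeq, without strand; libraries with few genes, many mitochondrial reads or poor mapping had been removed. The 20 negative-control genes that the study lists and 85 ribosomal protein genes (median 24.2% of counts together) were left out here.

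Counts were summed per technique, state and batch with at least 3 cells, so the batch is the replicate; 1 biopsy, the only RAW_Mock cell of batch 5Reseq, entered no sum. Nothing says that batches were separate animals, so no p-value measures the spread between animals. The p-values rest on the spread of the sums that is left after state and batch are fitted. All states of a technique share it, with 5 residual degrees of freedom in whole cells and 6 in Live-seq. Genes with at least 2 counts in 15% of the cells of 1 state were tested by edgeR 4.0.16 (quasi-likelihood, TMM scaling, prior count 0.125) in R 4.3.3 with state and batch as terms, over all states of a technique; whole cells gave 12 sums and Live-seq 15. CPM are relative to the kept counts and not TMM-scaled, so a ratio of CPM differs from a fitted fold change. States of 1 batch were compared by ratios with exact Poisson intervals (SciPy 1.17.1), which cover counting error only. The scripts were tested on simulated data. Alternatives were DESeq2 1.42.0, other size factors, no low-count filter, no gene left out, no replicate block and each batch left out.

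Batches are given by the labels and block the fit. Deviations of sums of the same batch correlated at 0.088 to 0.522 in whole cells (14 of 15 pairs over 0.1) and at -0.016 to 0.214 in Live-seq (4 of 16 over 0.1). The medians for different batches were -0.126 and -0.006. Deviations were taken from the mean of each state over its batches, so those of a state cancel out. The values for different batches are therefore partly set by those for the same batch and are no separate comparison. The pairs also share sums.

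The members and lists were chosen with earlier results of these data known. Genes named were the members, per list up to 6 pathway genes called in a comparison or, for ratios, with at least 50 CPM, and the 5 non-members most like the members; Acat2 and Cyp51 among the like genes fall outside this rule and were chosen after their values were seen. Some genes of the lists that the rule would name are not reported here, although counts and medians over a list include them. Locations are from GENCODE vM21 and promoters from RefSeq.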

Additional observations from a re-analysis of the deposited data

Results flagged for a closer look

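Of 14 sets of values with enough batches to be looked at for a batch far from the others, 3 held one, all in Live-seq RAW_LPS (n = 5 batches). The sets were the members in Live-seq RAW_LPS and RAW_Mock, the only states with enough batches. Chance gives about 1 in 20 for a single set, but the members of a state share the same sums, so the sets are not independent. Lss was at 1040 CPM in batch 6, a sum of 4 cells, and the gap to the next batch took 0.913 of the range. Fdps was at 44.7 CPM in batch 9_4, with the next at 6.99 CPM, and Idi1 was at 57.8 CPM in batch 9_4, with the next at 18.3 CPM.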

How the results depend on the processing

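With 2 members called in ASPC_Pre against RAW_Mock in whole cells, no replicate block left 1 (Insig1 then had an adjusted p of 0.0517), and leaving out a batch left 0 to 2: 0 without batch 8_8, 1 without batch 9_1 and 2 without batch scRNA. With 1 member called in IBA against ASPC_Pre in whole cells, DESeq2, the newer edgeR fit and no low-count filter each gave 2, adding Hmgcs1 (adjusted p = 0.0179, 0.0304 and 0.043), no replicate block gave 0 (Insig1 -1.21, adjusted p = 0.258) and leaving out a batch gave 0 throughout. The replicate block changed no other member's call. Of the 60 member values not called, 27 had the opposite sign in at least 1 alternative. On induction in Live-seq, 2 members were past 2-fold, 1 by means over cells and 0 with the cells sampled more than once left out, an alternative chosen after seeing the data; Hmgcs1 then had a ratio of 0.978 in place of 1.07. At 1 h after sampling, 1 member was past 2-fold and 0 with no genes left out. Over all genes, the share called ranged from 0.0% (without batch 8_8) to 5.30% (DESeq2) for LPS in whole cells, 1.25% as reported, from 0.381% (without batch 9_1) to 18.9% (the newer edgeR fit) for IBA against ASPC_Pre in whole cells, 11.4% as reported, and from 0.0% to 3.92% (DESeq2) for LPS in Live-seq. Against RAW_Mock in whole cells it ranged from 17.1% (no low-count filter, with more genes tested) to 39.4% (the newer edgeR fit) for IBA and from 19.3% to 44.4% in the same settings for ASPC_Pre. In Live-seq it ranged from 0.12% (without batch 8_8) to 11.6% (DESeq2) for IBA against RAW_Mock, from 0.00857% to 10.9% in the same settings for ASPC_Pre, and from 0.0% to 1.71% for IBA against ASPC_Pre. The causes were not tested. Live-seq sums held 4 to 63 cells.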
